A study of Mus musculus with 18 samples.

Results

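A group of 10 genes that bring lipid into the liver cell or build triglyceride there was followed in clamped livers of Old and Young mice: Cd36, Vldlr, Lpl, Slc27a2, Fabp1, Fabp4, Lpin1, Lpin2, Dgat1 and Dgat2. They were taken from the deposited table by gene symbol, and all 10 were found among its 18946 genes. Livers came from male C57BL/6J mice, an inbred laboratory strain without a transgene: 10 Old mice, 19.76 months of age in the labels, and 8 Young mice, 6.18 months of age in the labels, whose free text rounds these ages or gives a slightly higher one for Old mice. All 18 animals had been fasted and then infused with insulin in a hyperinsulinemic-euglycemic clamp, in which glucose is infused to hold blood glucose level, so no liver outside insulin infusion was compared and every group shares the fast and the tracer infusions. RNA was extracted with AllPrep kits in 5 Old and 3 Young mice, and with RNeasy kits in 5 Old and 5 Young mice.

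The liver takes up fatty acids from blood through membrane proteins such as CD36 and the fatty acid transport proteins, takes up lipoprotein remnants through receptors, and carries fatty acids inside the cell on binding proteins. Triglyceride is then built on glycerol 3-phosphate: acyl groups are added, the lipins remove the phosphate to give diacylglycerol, and the DGAT enzymes add the last fatty acid. Insulin favours this synthesis and is known to restrain the release of fatty acids from fat tissue.

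Levels are given as scaled TPM: the authors' TPM, in which reads are divided by gene length and set to the same total in each library, divided by a factor per library so that most genes align. The libraries held 90081467 to 127000035 reads in Old and 85790735 to 127487820 reads in Young mice over the listed genes. The 6 listed hepatocyte markers found in the table summed to 84015 to 139188 TPM in Old and 78831 to 113589 TPM in Young mice. Most of that sum was Alb, and none of the 6 was called for age, where 4.91% of all genes tested were called. Old mouse 14 had the highest sum and the highest Alb, 112006 TPM, and Apoa1 of all libraries. It had the lowest Hnf4a, 258.6 TPM against at least 344.4 TPM in the other Old and 346.4 TPM in Young mice. Its Cps1, 1023 TPM against at least 1528 and 1839 TPM, and Asgr1, 118.1 TPM against at least 122.0 and 131.3 TPM, were also the lowest. In the library of Old mouse 14 several of the genes below stood apart from all other libraries, and folds that move by over 1.5 times without it are given with and without it. That library also had 101.7 TPM of Cela1, an elastase gene listed as a pancreas marker, against 10.9 to 16.6 TPM in the other Old and 10.5 to 14.9 TPM in the Young libraries. Prss1 and Cpa1, also listed for pancreas, had no row in the table used here. The part of whatever tissue Cela1 marks in the values of mouse 14 was not tested.

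The 250 bases before the start of 4 of the genes are shown. They are the called gene Cd36, the most abundant members Fabp1 and Slc27a2, and Lpin1. Lpin1 did not pass with all libraries weighted alike but passed without mouse 14. They were taken from RefSeq promoters on GRCm38.p6, which held windows for 6 of the 10 genes; Lpl, Fabp4, Dgat1 and Dgat2 had none in it. Capitals mark the hexamer AGGTCA, the unit bound in pairs by nuclear receptors such as the PPARs, the spaced pair (AGGNCA, any base N, then AGGTCA), the GC box GGGCGG and the TATA box TATAAA, on either strand. The windows are chr5:17835897-17836146 on the minus strand for Cd36, chr6:71199629-71199878 on the plus strand for Fabp1, chr2:126552774-126553023 on the plus strand for Slc27a2 and chr12:16610967-16611216 on the minus strand for Lpin1, each printed in the direction of the gene.
Cd36: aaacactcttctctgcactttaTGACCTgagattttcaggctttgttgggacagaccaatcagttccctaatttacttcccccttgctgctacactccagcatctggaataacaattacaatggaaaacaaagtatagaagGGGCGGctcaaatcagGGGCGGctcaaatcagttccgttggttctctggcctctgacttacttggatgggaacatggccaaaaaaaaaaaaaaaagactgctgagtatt
Fabp1: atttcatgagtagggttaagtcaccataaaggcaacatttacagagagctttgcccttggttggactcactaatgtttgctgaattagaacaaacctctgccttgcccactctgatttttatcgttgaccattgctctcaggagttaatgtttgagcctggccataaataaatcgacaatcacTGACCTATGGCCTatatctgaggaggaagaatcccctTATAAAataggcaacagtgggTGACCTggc
Slc27a2: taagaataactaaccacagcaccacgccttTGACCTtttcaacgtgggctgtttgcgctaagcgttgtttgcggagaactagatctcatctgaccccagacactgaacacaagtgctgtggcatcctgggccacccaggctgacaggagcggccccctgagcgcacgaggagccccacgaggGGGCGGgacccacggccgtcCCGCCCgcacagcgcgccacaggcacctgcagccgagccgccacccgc
Lpin1: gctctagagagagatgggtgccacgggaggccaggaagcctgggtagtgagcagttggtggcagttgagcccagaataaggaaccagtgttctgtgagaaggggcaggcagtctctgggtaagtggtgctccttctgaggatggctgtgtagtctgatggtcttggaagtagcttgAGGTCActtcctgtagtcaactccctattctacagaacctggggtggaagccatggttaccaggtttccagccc
The hexamer occurred in all 4 windows shown. It stood 228 bases before the start in Cd36, 67 and 9 in Fabp1, 220 in Slc27a2 and 74 in Lpin1. The 6 genes had 9 windows in all, and those of Vldlr and Lpin2, which are not shown, lacked the hexamer. Of all 32851 promoter windows of this length, 14.0% held the hexamer. The spaced pair, which contains the hexamer, was present in Fabp1 at 67 bases before the start and in 0.0822% of all windows. A pair of GC boxes stood 109 and 93 bases before the start in Cd36, and another pair 68 and 48 bases before the start in Slc27a2, where 32.7% of all windows held at least a single GC box. The TATA box stood 30 bases before the start of Fabp1 and occurred in 12.4% of all windows. The E-box CACGTG, found in 6.02% of all windows, was in none of the 4 shown. A window of Lpin2 that is not shown held the E-box 9 bases before the start. Such matches describe letters and not binding.

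The levels of the 10 genes spanned 4 orders of magnitude in Old livers. Fabp1, which codes for the liver fatty acid-binding protein, was highest with 11525 ± 2113 TPM in Old and 10782 ± 2290 TPM in Young mice (SD, n = 10 and 8). Slc27a2, which codes for the very long-chain acyl-CoA synthetase and transport protein FATP2, followed with 2394 ± 493 TPM in Old and 2502 ± 262 TPM in Young mice. Dgat2 and then Cd36 were next, then Lpin2. Lpl, Fabp4, Dgat1 and Lpin1 lay close together, within the spread of one another in Old mice, and Vldlr was last at under 1 TPM on average in each age.

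With age, 2 of the 9 genes tested changed: Cd36 rose and Dgat1 fell. The other 7 did not pass the test. Across all 13895 genes tested with limma, 2.44% were called higher and 2.47% lower in Old mice at a Benjamini-Hochberg adjusted p under 0.05, 4.91% in either direction. In 0 of the 9 did the values of the ages lie wholly apart, as they did, lower in Old, in 0.202% of all genes and, higher in Old, in 0.216%. Of the 9 tested members, 5 had a positive and 4 a negative log2 fold of Old over Young, with a median of 0.05, against a median of 0.00 over all genes tested. Vldlr did not pass the filter on low values and is not among the 9. In bulk tissue, fewer cells of a type and less RNA per cell cannot be told apart.

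**Figure D1:**
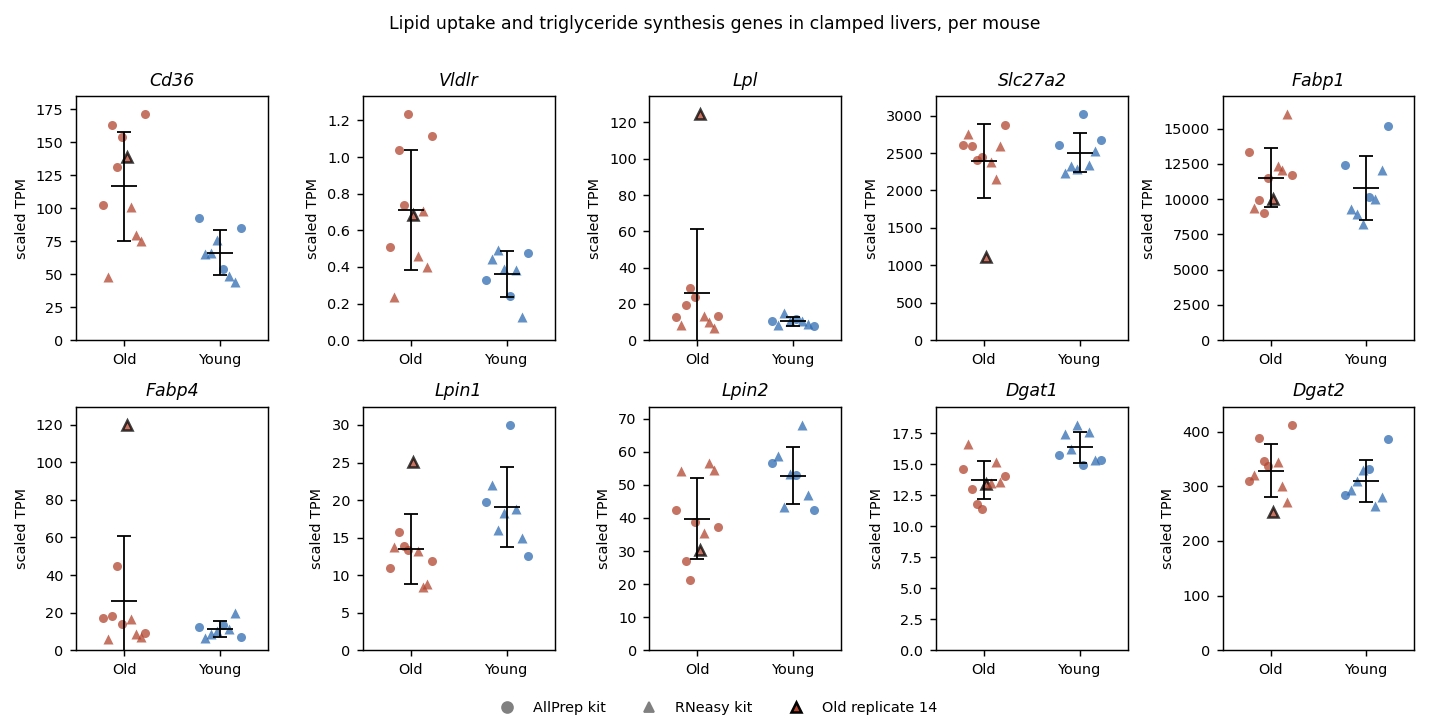
Scaled TPM of the 10 genes in each liver, Old left and Young right, with the mean and SD as black bars (bars that would reach below 0 end at 0) and the extraction kit as the shape of the point. Cd36 lies above the highest Young mouse in 7 of 10 Old mice and Dgat1 below the lowest Young mouse in 8 of 10, and the outlined Old mouse 14 stands apart in Lpl, Fabp4, Slc27a2 and Lpin1.

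Uptake genes come first. Cd36 (ENSMUSG00000002944), the scavenger receptor that facilitates fatty acid uptake and is low in healthy hepatocytes compared with muscle and fat, ranged from 48.2 TPM through a median of 116.9 to 170.9 TPM in Old mice, and from 43.8 through 65.8 to 92.2 TPM in Young mice. It lay above the highest Young value in 7 of 10 Old mice, so the groups overlapped through 3 mice. The mean was 116.4 ± 41.4 TPM in Old and 66.4 ± 17.2 TPM in Young mice (SD, n = 10 and 8), a log2 fold of 0.68 ± 0.18 (SE), or 1.60-fold (95% confidence interval 1.22 to 2.09), with a limma adjusted p of 0.0418.

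With each extraction kit, Cd36 was higher on average in Old mice. In AllPrep libraries all 5 Old mice, at 102.3 to 170.9 TPM, were above all 3 Young mice, at 53.6 to 92.2 TPM. In RNeasy libraries the 5 Old mice had 48.2 to 138.6 TPM and the 5 Young mice 43.8 to 75.8 TPM, with overlap. The log2 fold was 0.92 ± 0.21 in AllPrep libraries alone (limma adjusted p = 0.0810) and 0.50 ± 0.26 in RNeasy libraries alone (0.601), and the difference between these kits, -0.42 ± 0.37, did not pass the test (adjusted p = 0.975). The Old mice of the AllPrep libraries were also the heavier ones, at 39.5 to 55.0 g against 35.1 to 45.5 g in the Old mice of the RNeasy libraries, so that kit and weight moved together among Old mice.

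The call of Cd36 sat near the threshold. It was lost when Old mouse 7, 8, 9, 15 or 18 or Young mouse 1, 2, 10, 11, 12 or 13 was left out, with log2 folds of 0.56 to 0.71 and limma adjusted p of 0.0558 to 0.0997, and it held without Old mouse 14 (0.59 ± 0.17, adjusted p = 0.0495). Of 8 listed marker genes of macrophages, which also express Cd36, 2 were called higher in Old mice, Trem2 and Gpnmb, and 6 did not pass. Over all genes tested, 2.44% were called higher. Among the 6, Timd4 had a log2 fold of -0.35 (limma adjusted p = 0.174) and Clec4f one of 0.01 (0.956). Those of Adgre1, Cd68, Csf1r and Vsig4 were positive, at 0.60, 0.50, 0.22 and 0.26. The summed level of the 8 was 135 to 425 TPM in Old and 130 to 267 TPM in Young mice. Endothelial markers had 0 of 6 tested genes called, where 4.91% of all genes tested were called in either direction. They summed to 108 to 176 TPM in Old and 110 to 158 TPM in Young mice. The part of these cells in the difference of Cd36 was not tested.

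Vldlr (ENSMUSG00000024924), the receptor for very low-density lipoprotein, is known to be low in healthy liver. It ranged from 0.233 through a median of 0.694 to 1.23 TPM in Old mice and from 0.125 through 0.386 to 0.494 TPM in Young mice, on 86 to 745 reads a library. The level was above the highest Young value in 7 of 10 Old mice. Without the filter on low values its log2 fold was 0.42 ± 0.14, with a limma adjusted p of 0.0941, where 3.98% of 18946 genes were called. That fold is on log2(scaled TPM + 0.5) and understates the change of so low a gene, whose means of 0.711 ± 0.329 TPM in Old and 0.361 ± 0.125 TPM in Young mice (SD, n = 10 and 8) stood in a ratio of 1.97. Among the alternatives run without the filter, it passed the threshold in limma only when Old mouse 6, the lowest Old value, was left out (0.49, adjusted p = 0.0435).

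Lpl codes for lipoprotein lipase, which frees fatty acids from lipoprotein triglyceride at the vessel wall and is low in adult hepatocytes. It ranged from 6.58 through a median of 13.3 to 124.4 TPM in Old mice, and from 7.66 through 10.3 to 15.0 TPM in Young mice. The top value was mouse 14; the next Old value was 28.8 TPM, and 4 of 10 Old mice lay above the highest Young mouse. The log2 fold was 0.72 ± 0.41 (limma adjusted p = 0.302), and 0.33 ± 0.22 without mouse 14 (adjusted p = 0.365).

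Fabp4, the fatty acid-binding protein of adipocytes, macrophages and endothelium, behaved much like Lpl in mouse 14. It ranged from 6.05 through 15.3 to 120.0 TPM in Old mice and from 6.78 through 10.9 to 19.8 TPM in Young mice. The log2 fold was 0.58 ± 0.46 (limma adjusted p = 0.464), and 0.19 ± 0.31 without mouse 14 (0.739). Of 5 adipocyte markers only Cfd had a row in the table used here, and mouse 14 held its lowest Old value, 0.447 TPM, in a range up to 16.5 TPM in Old and of 2.33 to 8.28 TPM in Young mice. The macrophage sum of mouse 14, 285.5 TPM, was inside the range of the other Old mice. Mouse 14 held the highest level of all libraries in Trem2, 7.19 TPM against at most 4.47 TPM in the other Old and 1.73 TPM in Young mice. The same held for Gpnmb, 21.8 TPM against at most 13.6 and 2.30 TPM. Adgre1, Cd68 and Csf1r of mouse 14 were above their Old medians. Its Clec4f, 57.6 TPM, and Vsig4, 59.8 TPM, were below theirs of 60.8 and 61.3 TPM. Its Timd4, 4.38 TPM, was below the lowest Young value of 4.97 TPM. The endothelial sum of mouse 14, 176 TPM, was the highest of all, against 141 TPM in the next Old mouse and at most 158 TPM in Young mice. The part of these cells in the Lpl and Fabp4 of mouse 14 was not tested.

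The abundant transport and binding genes did not pass the test. Fabp1 had a log2 fold of 0.09 ± 0.15 (95% interval -0.23 to 0.41, limma adjusted p = 0.757), with 6 of 10 Old mice above the Young median. Slc27a2 had one of -0.13 ± 0.14 (interval -0.42 to 0.16, adjusted p = 0.593). In Slc27a2 mouse 14 was the low exception with 1116 TPM, against 2153 to 2873 TPM in the other Old mice and 2239 to 3016 TPM in Young mice, and the log2 fold without it was 0.00 ± 0.07 (adjusted p = 0.979).

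On the synthesis side, Dgat1 (ENSMUSG00000022555) fell. Dgat1 codes for the acyltransferase of the endoplasmic reticulum that re-esterifies fatty acids from outside the cell and completes triglyceride. Its level ranged from 11.4 through a median of 13.5 to 16.7 TPM in Old mice and from 14.9 through 16.0 to 18.2 TPM in Young mice. In 8 of 10 Old mice it was below the lowest Young mouse, the exceptions being Old mice 16 and 6. The mean was 13.7 ± 1.54 TPM in Old and 16.4 ± 1.24 TPM in Young mice (SD, n = 10 and 8), a log2 fold of -0.23 ± 0.06 and a fold of 0.852 (95% interval 0.781 to 0.930), with a limma adjusted p of 0.0358.

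The Dgat1 difference was small but nearly the same in each kit. The log2 fold was -0.24 ± 0.10 in AllPrep libraries alone (limma adjusted p = 0.248) and -0.23 ± 0.08 in RNeasy libraries alone (0.425). The call was lost without Old mouse 7, 8, 9 or 15 or Young mouse 1, 2, 4, 10, 11 or 13, at log2 folds of -0.24 to -0.21 and adjusted p of 0.0532 to 0.0651. With no composition factor it was -0.18 ± 0.06 (adjusted p = 0.0841).

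Dgat2, the acyltransferase that is the main route for newly made fatty acids in liver, was the more abundant of the pair. It ranged from 253.6 through 328.8 to 412.8 TPM in Old mice and from 264.5 through 301.4 to 385.9 TPM in Young mice, largely overlapping. Its log2 fold was 0.05 ± 0.08 (95% interval -0.12 to 0.22, limma adjusted p = 0.747), and 0.08 ± 0.08 without mouse 14 (0.535). The level of Dgat2 over that of Dgat1 was 24.2 ± 4.87 in Old and 19.1 ± 3.20 in Young mice (SD, n = 10 and 8), a ratio of TPM for which no test was made.

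Lpin1 and Lpin2, phosphatidic acid phosphatases that also act in the nucleus as regulators, were lower on average in Old mice without passing the test. Lpin1 ranged from 8.38 through 13.3 to 25.1 TPM in Old mice and from 12.5 through 18.6 to 30.0 TPM in Young mice, and 9 of 10 Old mice lay below the Young median. The mouse above it was mouse 14. The log2 fold was -0.51 ± 0.18 (95% interval -0.90 to -0.12, limma adjusted p = 0.112), and -0.64 ± 0.15 without mouse 14, where it passed (adjusted p = 0.0174). In that fit 7.02% of all genes tested were called. With all libraries and library weights Lpin1 also passed, at -0.61 ± 0.15 (limma adjusted p = 0.0174), in a fit whose share of all genes called is not given.

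Lpin2, the lipin most typical of liver, ranged from 21.2 through 38.0 to 56.6 TPM in Old mice and from 42.5 through 53.1 to 68.2 TPM in Young mice, with 7 of 10 Old mice below the lowest Young mouse. Its log2 fold was -0.41 ± 0.16 (95% interval -0.74 to -0.08, limma adjusted p = 0.125). Lpin2 over Lpin1 was 3.39 ± 1.87 in Old and 2.88 ± 0.558 in Young mice (SD, n = 10 and 8), with mouse 14 lowest at 1.21. The difference in mean log2 ratio, Old minus Young, was 0.06, 0.20 without mouse 14, and below 0 without Old mouse 16 (-0.07) or 17 (-0.06) or Young mouse 10 (-0.04), so it had no stable sign. No ratio of the lipins was tested.

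**Figure D2:**
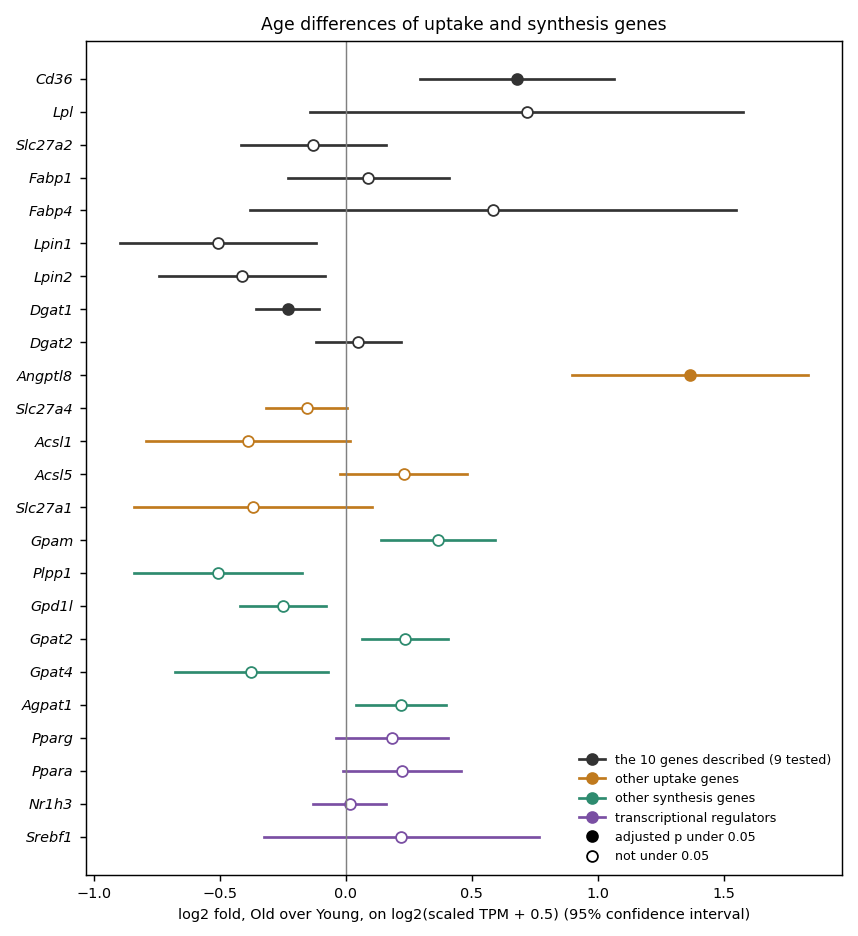
Log2 fold of Old over Young for the 9 tested genes of the group and for the named genes of the wider uptake, synthesis and regulator lists, with 95% confidence intervals; filled points have an adjusted p under 0.05. Cd36 and Angptl8 lie above 0 and Dgat1 below 0 among the filled points.

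In the wider uptake list of 21 genes, 1 was called higher and 0 lower, where 4.91% of all genes tested were called in either direction. Of the 21, 1 had an unadjusted p under 0.05 in limma (4.76%, against 23.4% of all genes tested). The median log2 fold was 0.05, against 0.00 over all genes tested. The called gene was Angptl8, an insulin-induced liver protein known to restrain lipoprotein lipase. It ranged from 42.2 through 80.6 to 148.0 TPM in Old mice and from 12.9 through 35.3 to 51.7 TPM in Young mice, and 9 of 10 Old mice were above the highest Young mouse. The log2 fold was 1.37 ± 0.22 (limma adjusted p = 0.00365). It was 1.20 in AllPrep libraries alone (0.142), 1.49 in RNeasy libraries alone (0.0687) and 1.45 with body weight as a term (0.168), so that the call did not hold there, and it held with each library left out in turn.

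The other uptake genes named here did not pass. Slc27a4 and Slc27a1, which code for fatty acid transport proteins, had log2 folds of -0.16 ± 0.08 (limma adjusted p = 0.225) and -0.37 ± 0.23 (0.336). Acsl1 and Acsl5, which activate fatty acids to acyl-CoA, had -0.39 ± 0.19 (0.232) and 0.23 ± 0.12 (0.259). Without mouse 14, Acsl1 was at -0.21 ± 0.10 (0.208), Acsl5 at 0.12 ± 0.07 (0.282) and Slc27a1 at -0.15 ± 0.11 (0.414).

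In the synthesis list, 0 of 20 tested genes were called in either direction by limma, with 7 at an unadjusted p under 0.05 (35.0%, against 23.4% of all genes tested), 0 by limma-voom on the recovered reads and a median log2 fold of 0.00. Gpam, the mitochondrial glycerol-3-phosphate acyltransferase that starts the pathway, averaged 97.1 ± 26.6 TPM in Old and 75.5 ± 8.58 TPM in Young mice (SD, n = 10 and 8), with a log2 fold of 0.36 ± 0.11 (adjusted p = 0.0583). Other acyltransferases of the first steps differed in sign: Gpat2 had a log2 fold of 0.23 (adjusted p = 0.0952), Agpat1 0.22 (0.133) and Gpat4 -0.38 (0.132), or -0.24 without mouse 14 (0.0835). They also differed in level. Gpat2 averaged 1.73 TPM in Old and 1.45 TPM in Young mice, Agpat1 4.71 and 4.08 TPM, and Gpat4 101.9 and 127.1 TPM. The log2 fold of Gpat2 was 0.29 with a pseudocount of 0.1 and 0.19 with a pseudocount of 1. Plpp1, a lipid phosphate phosphatase, had -0.51 ± 0.16 (0.0719), at -1.03 ± 0.22 in AllPrep (0.0600) and -0.12 ± 0.12 in RNeasy libraries alone (0.780), a difference between kits with an adjusted p of 0.975. Gpd1l, related to the dehydrogenase that makes glycerol 3-phosphate, had -0.25 ± 0.08 (0.0828).

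These near-threshold genes were sensitive to mouse 14, where Gpam was 169.6 TPM against 80.0 to 101.1 TPM in the other Old mice. Without it, 3 genes of the list passed in limma: Gpam with 0.27 (adjusted p = 0.0202), Gpat2 with 0.27 (0.0408) and Plpp1 with -0.56 (0.0409). In that fit 7.02% of all genes tested were called, against 4.91% with all libraries. Gpam and Gpat2 also passed without Old mouse 16, at 0.40 and 0.27, and Gpam without Young mouse 13, at 0.42.

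Of 12 regulators, 0 were called by limma, 4 had an unadjusted p under 0.05 (33.3%, against 23.4% of all genes tested), and 0 were called by limma-voom. Pparg, the nuclear receptor known to drive Cd36 in fatty liver of mice, had 11.5 ± 3.55 TPM in Old and 9.22 ± 1.37 TPM in Young mice (SD, n = 10 and 8), with a log2 fold of 0.18 ± 0.11 (adjusted p = 0.305), at 0.48 in AllPrep (0.0952) and -0.03 in RNeasy libraries alone (0.941). Ppara, the receptor of fasting and fatty acid oxidation, had 0.22 ± 0.11 (0.241). Srebf1, which promotes lipid synthesis under insulin, had 0.22 ± 0.26 (0.638), and 0.07 ± 0.23 without mouse 14 (0.882). Nr1h3, the liver X receptor alpha, had 0.02 ± 0.07 (0.917), and 0.04 ± 0.07 without mouse 14 (0.786).

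Between livers of like age and kit, a few of the 10 genes varied together. Each log2 level was taken as the distance from the mean of its age and kit, and Pearson r was computed over the 18 libraries, which share their depth and the composition of the tissue, as a description. Cd36 and Vldlr had r = 0.77, and 0.76 without mouse 14. Fabp1 and Lpin1 went opposite ways, at -0.70 and -0.72 without mouse 14.

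The r of several other pairs moved with mouse 14. Slc27a2 and Lpin1 had r = -0.55, and 0.24 without mouse 14, and Fabp4 and Slc27a2 -0.80, and -0.21 without it. Lpl and Fabp4 had r = 0.88, and 0.56 without it, and Lpl and Slc27a2 -0.92, and -0.44 without it. Dgat1 and Lpin2 had 0.56, and 0.52 without it, while Dgat1 and Dgat2 were at 0.18 and 0.09.

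**Figure D3:**
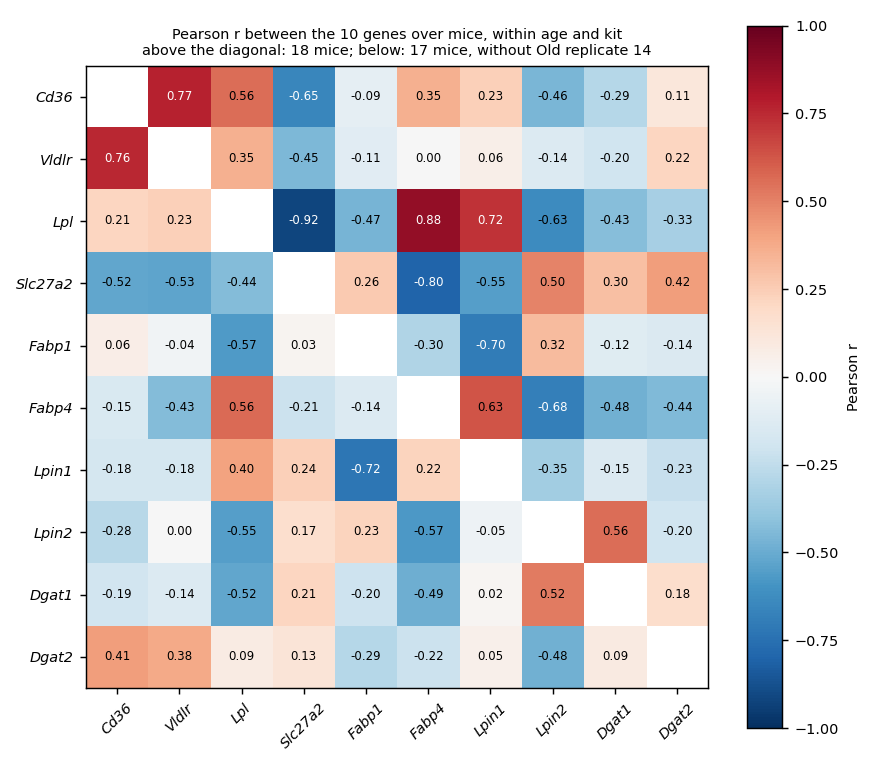
Pearson r between the log2 levels of the 10 genes after the mean of each age and kit was taken off, over 18 mice above the diagonal and over the 17 mice without Old mouse 14 below it. Cd36 with Vldlr is alike on each side (0.77 and 0.76), and Lpl with Fabp4 is not (0.88 and 0.56).

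By the same measure over all genes, the 3 most like Cd36 were Ywhab (r = 0.90), a 14-3-3 adaptor, Gclc (0.89), the catalytic unit of glutathione synthesis, and Mgst3 (0.87), a microsomal glutathione transferase. For Dgat1 they were Csnk2b (0.86), the regulatory subunit of casein kinase 2, Prpsap1 (0.84) and Psmd9 (0.83), a proteasome assembly factor. For Lpin1, the member with the third smallest p, they included Rab4a (0.85) and Tpra1 (0.83), which were at 0.71 and 0.67 without mouse 14. Without mouse 14 the 3 genes of Cd36 were at 0.86, 0.86 and 0.82, and those of Dgat1 at 0.85, 0.89 and 0.84.

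The labels give traits of each mouse, and body weight at the clamp differed between the ages, at 43.05 ± 6.45 g in Old and 30.2 ± 3.02 g in Young mice (SD, n = 10 and 8). With age and kit also in the limma model, 0 of the 9 tested genes had a slope on weight that passed, against 0.072% of all genes. An unadjusted p under 0.05 was found for 2 of the 9. The share of all genes under that unadjusted p is not given here, so the 2 cannot be set against it. Dgat2 had a slope of 0.024 ± 0.0078 log2 units per g (p = 0.00653 in limma, adjusted p = 0.161) and Lpin2 one of -0.043 ± 0.016 (p = 0.0156 in limma, adjusted p = 0.210). Cd36 had 0.037 ± 0.021 (adjusted p = 0.402).

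**Figure D4:**
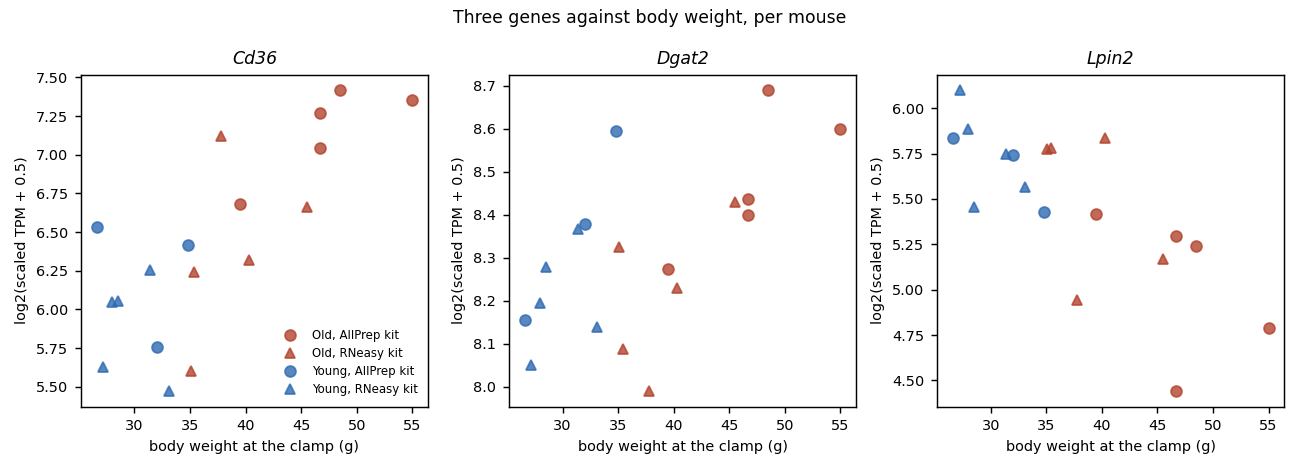
Log2 levels of Cd36, Dgat2 and Lpin2 in each liver against body weight at the clamp in g, with Old mice in red and Young mice in blue and the kit as the shape. The heaviest mice are Old, AllPrep-extracted, and no mouse over 35 g is Young.

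Age and weight moved together: the lightest Old mouse, at 35.1 g, was heavier than the heaviest Young mouse, at 34.8 g. With body weight as a term, the log2 fold of Cd36 was 0.23 ± 0.31 (limma adjusted p = 0.779) and that of Dgat1 -0.13 ± 0.10 (adjusted p = 0.624), so neither was called, and Lpin2 and Dgat2 changed sign. The slopes on the percent suppression of glycerol release, 29.3% ± 13.8 in Old and 60.3% ± 11.2 in Young mice (SD, n = 10 and 8), passed for 0 of 9 genes, with 0 at an unadjusted p under 0.05 in limma. The same held for the labels' liver fatty acid oxidation, of no stated unit, 2.53 ± 0.365 in Old and 3.17 ± 0.383 in Young mice: 0 of 9 passed in limma and 0 had an unadjusted p under 0.05. The background was 0% of all genes for each trait.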

How the data were processed

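Liver RNA of 10 Old and 8 Young mice was sequenced after ribosomal RNA depletion, per the labels' protocols. The deposited table gives TPM made by the authors, and each library sums to 1000000. Per the submitters' processing notes, the tools were STAR 2.7.9a, Subread and featureCounts, and the builds GRCm39 and mm10, whose roles are not stated. Gene lengths, annotation and strand setting are not given either, so overlapping genes and those with close copies are uncertain. Each mouse is a separate animal in the labels.

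A factor per library was computed as a trimmed mean of log ratios (30% of log ratios, 5% of levels cut at either end) and divided out of the TPM. Differences were tested on log2(scaled TPM + 0.5) in limma 3.58.1 under R 4.3.3, using a variance trend and terms for age and kit. The 13895 genes that reached 0.5 TPM in 8 or more libraries entered, and p-values were adjusted over all of them. Slopes on traits and the age by kit term used the same model. From the deposited TPM, whole reads were recovered for 100% of genes (tolerance 0.0001), 85790735 to 127487820 per library. On these reads limma-voom, an alternative chosen after seeing the data, called 1 of the 9 tested genes higher and 1 lower. The share of all genes called by limma-voom is not given here. Pairs of libraries of an age differed by more than sampling noise, with a lowest chi-square per degree of freedom of 75.1 over 45 Old and 38.5 over 28 Young pairs. The fit was tested on simulated data.

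The 10 genes, the lists and the markers were chosen with earlier results of these data known. All 10 are named, with every called gene and the 6 smallest p of the uptake and synthesis lists, 4 regulators, and, for the 3 members with the smallest p, the 3 genes most like each among those averaging 2 or more on the log2 scale; 2 genes that this rule names are not reported here. Of the marker lists, cardiac and skeletal muscle had no row in the table used here, and 1 of 3 pancreas genes did. The fit was repeated without the kit term, in either kit, with other scalings, filters and pseudocounts, with library weights, with body weight and with each library left out. Promoter windows came from RefSeq on GRCm38.p6. Python 3.11.15, numpy 2.4.6, pandas 2.3.3 and matplotlib 3.10.9 were used.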

Additional observations from a re-analysis of the deposited data

Results flagged for a closer look

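Single mice stood apart from the rest of their age in 11 of 50 groups checked with Dixon's gap over range. The cutoff is one that chance passes about 1 in 20 times in a single group. The 50 groups are genes measured in the same 18 livers, so their flags are not independent. An excess over chance was not tested. Old mouse 14 accounted for 7 of the 11 flags. Its Lpl, 124.4 TPM against 6.58 to 28.8 TPM in the other Old mice, had a gap of 0.812 of the range. Its Fabp4, 120.0 TPM against 6.05 to 44.7 TPM, had a gap of 0.660. Its Slc27a2, 1116 TPM against 2153 to 2873 TPM, lay below the others by 0.590 of the range. Its Lpin1, 25.1 TPM against 8.38 to 15.7 TPM, had a gap of 0.561.

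In the wider lists, mouse 14 had 573 TPM of Acsl5 against 242 to 353 TPM (gap 0.665), 169.6 TPM of Gpam against 80.0 to 101.1 TPM (0.765) and 47.2 TPM of Gpat4 against 85.6 to 126.7 TPM (0.483). Fabp5, a fatty acid-binding protein chosen after its values were seen, had 549 TPM in mouse 14 against at most 54.0 TPM in the other Old mice and 40.3 TPM in Young mice. Among Young mice, mouse 13 had 1456 TPM of Acsl1 against 1006 to 1167 TPM (gap 0.641). Young mouse 1 had 23.3 TPM of Plpp1 against 12.3 to 17.2 TPM (0.555), 86.9 TPM of Ppara against 114.6 to 138.7 TPM (0.536) and 75.9 TPM of Nr1h3 against 54.6 to 64.5 TPM (0.537).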

How the results depend on the processing

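No paired analysis was possible because no replicate number occurs in both ages. Of the 9 tested genes, 1 was called higher in Old mice; this was 0 with no kit term, in AllPrep or RNeasy libraries alone, with no composition factor and with body weight as a term, and 0 to 1 with each library left out. 1 was called lower; this was 0 in AllPrep or RNeasy libraries alone, with no composition factor and with body weight as a term, 2 with library weights, and 0 to 2 with each library left out. The uptake list had 1 called, 0 in either kit alone and with body weight, 2 with library weights, and 1 to 2 with each library left out (2 without Old mouse 14). The synthesis list had 0, with 1 under no composition factor, 4 under library weights, and 0 to 3 with each library left out. The regulators had 0, with 2 under library weights and 0 to 1 with each library left out (1 without Young mouse 13). Slopes on body weight had 0, with 2 under no kit term. Leaving out Old mouse 14 raised the share of all genes called to 7.02%, from 4.91%. For the other alternatives of this paragraph that share is not given, so a moved count cannot be set against it. The cause was not tested, and each kit alone leaves fewer mice.

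Signs turned, in values that were not called, for Fabp1 in AllPrep libraries (-0.17), for Pparg in RNeasy libraries (-0.035), for Nr1h3 in AllPrep libraries (-0.012) and with 4 libraries left out in turn (-0.017 to 0.062 over all 18), and with body weight as a term for Dgat2 (-0.25), Lpin2 (0.11), Plpp1 (0.14), Pparg (-0.23) and Srebf1 (-0.64). With no kit term Cd36 had an adjusted p of 0.0644 in limma. Among the 10 genes, Vldlr had the fewest reads, 86 in its lowest library.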
